A study of Mus musculus with 30 samples.

Results

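The core pluripotency factors are 4 transcription factor genes, Pou5f1 (which encodes Oct4), Sox2, Nanog and Sall4, and they were measured here by every probe set annotated to exactly one of these symbols. The rule found 5 probe sets for the 4 genes, of 18193 genes named on the array. Pou5f1, Sox2 and Nanog each had 1 probe set (1417945_at, 1416967_at and 1429388_at) and Sall4 had 2 (1424152_at and 1424153_s_at). All 5 passed the brightness filter, and none lay at the floor of any array. Day-5 embryoid bodies (EB), the differentiating aggregates that R1 mouse embryonic stem cells form once the cytokine LIF is withdrawn, were compared with undifferentiated R1 cells (ESC) held in LIF. Each state had 3 biological replicate cultures of this cell line, all exposed for 15 min to 150 ug/ml cycloheximide, which holds ribosomes in place on mRNAs. A sucrose gradient of the cytoplasmic lysate was cut into 12 fractions that were combined into 4 pools. RNA of the 4 pools and total RNA, which was not fractionated, were hybridised separately for every culture, on 30 Affymetrix arrays. Whether pool 1 is the top or the bottom of the gradient is not given in the labels, and the pools are called by number.

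Oct4 and Sox2 bind DNA side by side, at composite sites that hold an Oct and a Sox element, and act together on the enhancers of genes that keep a stem cell undifferentiated. Nanog is a homeodomain protein that joins this circuit, and Sall4 is a zinc-finger protein that binds Oct4 and Nanog and sits in the NuRD chromatin complex. The factors regulate each other's genes and their own. During differentiation the network is wound down at the level of transcription and also of mRNA translation and turnover. An mRNA carrying many ribosomes sediments further into a gradient than an mRNA carrying few, so the spread of an mRNA over gradient fractions describes how it is loaded with ribosomes.

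Because the members act on each other's genes, the letters before their transcription starts were searched on both strands for 4 motifs, and a 300-base RefSeq window (GRCm38.p6, plus strand, 250 bases before to 50 after the start) is shown for the 3 of 4 genes that matched the table. Sall4 is named only. The motifs were an Oct part ATGCAAA, a Sox part CATTGT, the composite in which CATTGT, any base (N) and ATGCAAA follow each other, and AGGTCA, the core recognised by nuclear receptors, a family with members known to act at the Pou5f1 promoter. The windows lie at chr17:35505782-35506081 for Pou5f1, chr3:34649745-34650044 for Sox2 and chr6:122707239-122707538 for Nanog. Capitals mark AGGTCA in Pou5f1, ATGCAAA in Sox2 and the reverse strand of the composite in Nanog.
Pou5f1: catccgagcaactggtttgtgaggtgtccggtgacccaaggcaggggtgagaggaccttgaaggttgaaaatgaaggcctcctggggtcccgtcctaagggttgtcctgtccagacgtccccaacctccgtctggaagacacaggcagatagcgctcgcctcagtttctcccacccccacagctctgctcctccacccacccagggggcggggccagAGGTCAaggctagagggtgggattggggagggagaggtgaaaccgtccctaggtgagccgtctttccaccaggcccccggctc
Sox2: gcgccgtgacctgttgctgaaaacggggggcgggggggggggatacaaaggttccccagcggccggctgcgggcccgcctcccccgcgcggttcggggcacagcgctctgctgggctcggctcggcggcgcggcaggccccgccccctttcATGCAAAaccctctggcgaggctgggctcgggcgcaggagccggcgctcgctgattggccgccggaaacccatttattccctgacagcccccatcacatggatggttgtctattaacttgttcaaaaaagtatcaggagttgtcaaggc
Nanog: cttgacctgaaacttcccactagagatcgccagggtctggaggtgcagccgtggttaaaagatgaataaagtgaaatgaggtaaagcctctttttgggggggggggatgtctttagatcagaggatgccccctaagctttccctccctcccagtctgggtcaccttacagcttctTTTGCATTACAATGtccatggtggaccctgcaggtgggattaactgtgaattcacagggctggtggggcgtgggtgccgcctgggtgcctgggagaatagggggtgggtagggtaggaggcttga
The composite match in Nanog spans bases 75 to 62 before the start. Its letters contain both an Oct part and a Sox part, so these 3 matches overlap. Of 32851 promoter windows of this length, 2 held the composite (0.00609%), and both were overlapping windows of Nanog. Only exact matches were counted, so composite sites that vary from these letters are not in this share. The Oct part alone, found in Sox2 at bases 99 to 93 before the start, was held by 4.63% of windows, the Sox part by 12.6% and AGGTCA by 16.3%. AGGTCA stood 33 to 28 bases before the start in Pou5f1, and its reverse strand stood at bases 244 to 239 in Sox2 and 248 to 243 in Nanog. A match is a description of the letters, and it was not tested against the arrays.

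The values were log2 signals that, to judge by the values, were scaled to spike-in controls, and arrays differed in brightness as a whole. Over all probe sets, mean linear signal was 345 ± 38.5 on EB total arrays and 154 ± 2.86 on ESC total arrays (SD, n = 3 each), and it ranged from 72.4 to 577.8 over the 30 arrays. Hybridisation controls were brighter on EB total arrays too, at a log2 of 12.19 ± 0.45 against 11.35 ± 0.28 in ESC (SD, n = 3 each). Centred on them, the median probe set differed by 0.020 between EB and ESC total RNA, against 0.86 as deposited. The cause of the brightness differences was not tested. Each difference is therefore given on the deposited scale and again relative to all genes, after quantile normalization of the arrays compared. Among arrays of a group the lowest correlation over probe sets was 0.906, in EB pool 2, where the replicate 3 array stood apart with hybridisation controls at 13.9 against 11.5 and 11.6. ESC pool 1 replicate 1 had a mean signal of 225.9, against 72.4 and 81.3 in the other ESC cultures. The log2 ratio of 3' to 5' Actb signal, which grows as RNA or its labelled product is shorter, was lower in EB, between 2.06 and 2.50 in EB total RNA and between 2.77 and 3.31 in ESC total RNA. It lay between 0.46 and 1.01 in EB pool 4 and between 1.34 and 3.54 in ESC pool 4. The part of these array differences in the results that follow was not tested. Each array was made from 2.5 ug of RNA whatever the yield of the pool, and the labels do not say when spike-ins were added. Values over pools are therefore read as array signals and not as amounts of mRNA.

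All 4 factors were detected in EB, and after 5 days without LIF none of their probe sets read lower in total RNA than in ESC on the deposited scale. Nanog had the largest difference of the 5 probe sets: its deposited log2 signal was 12.42, 12.37 and 12.43 in EB total RNA, against 10.78, 10.74 and 10.73 in ESC total RNA. The 3 EB cultures lay well above the 3 ESC cultures and the spread within each state was small. On log2(signal + 32), the scale of every test here, Nanog rose by 1.64 ± 0.15 (SE), a 3.11-fold difference (limma, adjusted p = 2.93e-05). Against all genes the difference was 0.54 ± 0.12, or 1.45-fold (limma, adjusted p = 0.0420), and it lay at the 91.2 percentile of all probe sets tested. That relative call did not hold when any culture was left out: without each of the 6 in turn the difference was 0.48 to 0.59 and the adjusted p 0.0895 to 0.129.

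Pou5f1 took the opposite place among the factors. Its deposited signal was 12.33, 12.08 and 12.42 in EB total RNA, against 11.45, 11.50 and 11.48 in ESC total RNA. The groups did not overlap, with EB the higher, and the difference of 0.79 ± 0.16 passed the test (limma, adjusted p = 0.00137). It was nevertheless below the 0.86 by which the median probe set differed. Relative to all genes Pou5f1 read 11.66, 11.69 and 11.85 in EB and 11.96, 12.03 and 12.07 in ESC, so that all EB cultures lay below all ESC cultures. The relative difference of -0.28 ± 0.12 did not pass the test (limma, adjusted p = 0.191) and lay at the 19.0 percentile.

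Sox2 and Sall4 rose on the deposited scale and were not called relative to all genes. Sox2, the HMG-box partner of Oct4, had 13.57, 13.09 and 13.38 in EB total RNA, against 12.41, 12.21 and 12.29 in ESC total RNA, and rose by 1.04 ± 0.18 (limma, adjusted p = 0.000447). Its difference relative to all genes was 0.032 ± 0.12 (limma, adjusted p = 0.895). Sall4 probe set 1424152_at had 11.93, 11.64 and 11.97 in EB total RNA, against 10.48, 10.67 and 10.46 in ESC total RNA. It rose by 1.29 ± 0.17 (limma, adjusted p = 9.48e-05), and its relative difference was 0.16 (limma, adjusted p = 0.448). The dimmer Sall4 probe set 1424153_s_at, with 8.39, 8.11 and 8.24 in EB total RNA and 6.89, 6.95 and 6.47 in ESC total RNA, rose by 1.25 ± 0.17, and its relative difference was 0.036 (limma, adjusted p = 0.903).

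The 5 of 5 probe sets called higher on the deposited scale stand beside 73.3% of all 27022 probe sets called higher and 0.229% called lower. Relative to all genes 1 of 5, Nanog, was called higher, beside 4.36% called higher and 3.35% called lower over all probe sets. Those shares stood for 1178 and 905 probe sets. When each culture was left out in turn, limma called 194 to 622 of all probe sets higher and 175 to 391 lower. With the replicate number as a block, which does not pair the cultures here, 13 and 30 were called. The relative calls of list genes in total RNA further on come from the same fit and were not each tried without single cultures. In these bulk samples a change in the number of cells that make an mRNA and a change in mRNA per cell cannot be told apart.

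**Figure D1:**
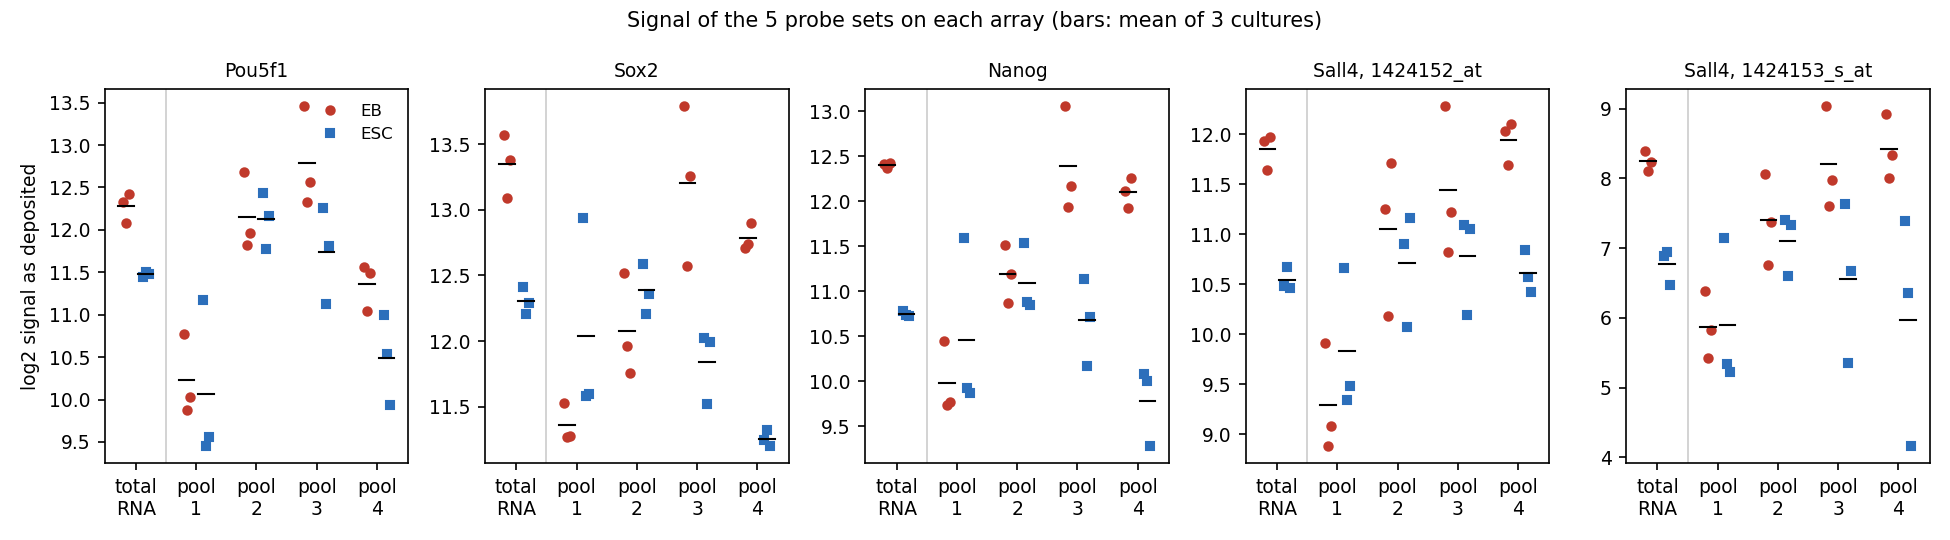
Deposited log2 signal of the 5 probe sets (y axes, each with its own range) on every array, for total RNA and gradient pools 1 to 4, with EB as red circles left of ESC as blue squares and a bar at the mean of 3 cultures. In total RNA the EB points lie above the ESC points for every probe set, and in pool 4 Nanog reads 11.93 to 12.26 in EB and 9.28 to 10.08 in ESC.

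Across the gradient, the EB signal of every factor was lowest in pool 1 in all 3 cultures and highest in pool 3 or 4. Whole arrays varied over the pools as well. Their mean linear signal was 126, 384, 394 and 232 in EB pools 1 to 4, and 127, 270, 158 and 97.8 in ESC pools 1 to 4 (means of 3 cultures). Pou5f1 was brightest in pool 3 in 3 of 3 EB cultures and in pool 2 in 3 of 3 ESC cultures. In EB its deposited log2 signal was 10.23 ± 0.48 in pool 1, 12.15 ± 0.46 in pool 2, 12.78 ± 0.60 in pool 3 and 11.36 ± 0.28 in pool 4 (SD, n = 3), and only pools 2 and 3 overlapped. In ESC it was 10.06 ± 0.96, 12.13 ± 0.33, 11.73 ± 0.57 and 10.49 ± 0.54 in pools 1 to 4 (SD, n = 3), where pool 2 overlapped pool 3, and pool 1, through its replicate 1, overlapped pools 3 and 4.

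Sox2 had a different profile in the 2 states. In EB it read 11.36 ± 0.15, 12.08 ± 0.39, 13.21 ± 0.61 and 12.78 ± 0.10 in pools 1 to 4 (SD, n = 3), with overlap only between pools 3 and 4. In ESC it read 12.04 ± 0.78, 12.39 ± 0.19, 11.84 ± 0.28 and 11.26 ± 0.06 in pools 1 to 4 (SD, n = 3). In ESC, pool 1 overlapped pools 2 and 3, and pool 4 lay below every other ESC pool. The brightest pool was 3, 4 and 3 in EB cultures 1 to 3, against 1, 2 and 2 in ESC cultures 1 to 3.

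Nanog followed Sox2. In EB it read 9.99 ± 0.40, 11.19 ± 0.32, 12.39 ± 0.59 and 12.10 ± 0.17 in pools 1 to 4 (SD, n = 3), with overlap only between pools 3 and 4. In ESC it read 10.46 ± 0.98, 11.09 ± 0.39, 10.68 ± 0.49 and 9.79 ± 0.44 in pools 1 to 4 (SD, n = 3), and each pool overlapped its neighbour in the order of the means. Its brightest pool was 3, 3 and 4 in EB cultures and 1, 2 and 2 in ESC cultures.

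Sall4 leaned to pool 4 in EB. Probe set 1424152_at read 9.29 ± 0.55, 11.05 ± 0.79, 11.44 ± 0.75 and 11.94 ± 0.22 in EB pools 1 to 4 (SD, n = 3), and only pool 1 lay apart from the others. It read 9.83 ± 0.73, 10.71 ± 0.57, 10.78 ± 0.51 and 10.61 ± 0.21 in ESC pools 1 to 4 (SD, n = 3), and neighbouring pools in the order of these means overlapped. Probe set 1424153_s_at read 5.88 ± 0.48, 7.40 ± 0.66, 8.21 ± 0.74 and 8.42 ± 0.47 in EB pools 1 to 4 (SD, n = 3). In ESC it read 5.90 ± 1.08, 7.11 ± 0.44, 6.56 ± 1.15 and 5.97 ± 1.65 in pools 1 to 4 (SD, n = 3), all overlapping, and the replicate 3 value of 4.16 in ESC pool 4 lay 0.81 above that array's floor.

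Expressed as a share of the linear signal summed over the 4 pools, 45.6% of Pou5f1 signal in EB lay in pool 3 and 29.4% in pool 2, against 32.5% in pool 3 and 42.7% in pool 2 in ESC (means of 3 cultures). For Sox2, pools 3 and 4 held 40.3% and 30.2% in EB, against 23.3% and 15.7% in ESC. For Nanog they held 41.0% and 33.7% in EB, against 26.7% and 14.7% in ESC. Pool 4 held 41.2% of the signal of Sall4 1424152_at in EB and 26.6% in ESC. The share of pool 1 was 7.69% in EB and 23.5% in ESC for Nanog, and 11.1% in EB and 27.4% in ESC for Sox2. The median share over all probe sets tested was 9.29% to 10.5%, 24.6% to 32.2%, 29.6% to 42.1% and 18.8% to 28.2% in pools 1 to 4 of the EB cultures. In the ESC cultures it was 14.3% to 24.5%, 32.5% to 42.7%, 22.4% to 26.3% and 15.4% to 23.3%.

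The centre of this distribution, the mean pool number weighted by share, was higher in EB for all 5 probe sets with no overlap. It was 3.01 ± 0.07 in EB and 2.33 ± 0.16 in ESC for Nanog, and 2.90 ± 0.07 in EB and 2.27 ± 0.19 in ESC for Sox2 (SD, n = 3 each). It was 3.05 ± 0.11 in EB and 2.67 ± 0.13 in ESC for Sall4 1424152_at, and 2.72 ± 0.04 in EB and 2.50 ± 0.06 in ESC for Pou5f1 (SD, n = 3 each). Each two-sided exact permutation test gave p = 0.1, the smallest that 3 against 3 cultures allow. The median centre over all probe sets was itself higher in EB, at 2.69 to 2.80 in EB cultures and 2.34 to 2.51 in ESC cultures. With arrays scaled to one mean signal the difference between EB and ESC was 0.53 for Nanog and 0.39 for Sox2, while that of Pou5f1 turned to -0.050.

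**Figure D2:**
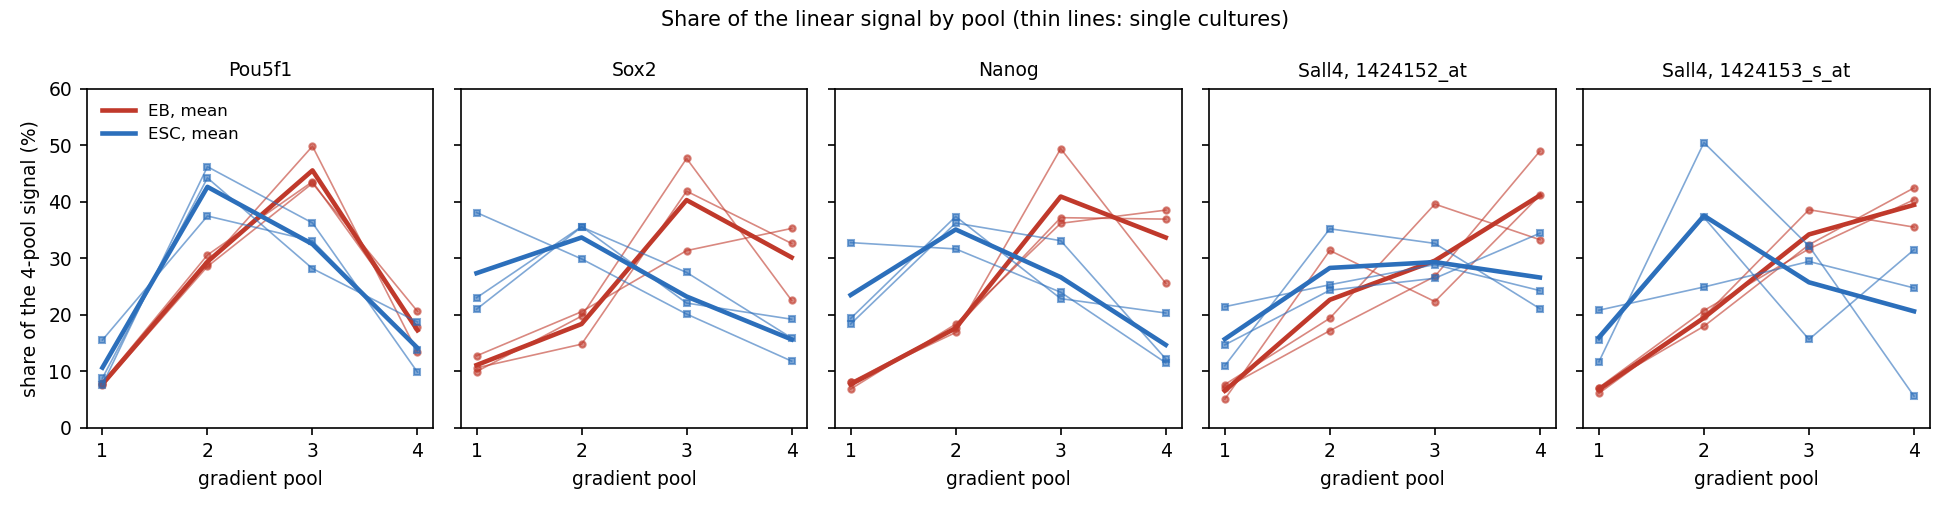
Share of the linear 4-pool signal (y axis, percent) in gradient pools 1 to 4 (x axis) for the 5 probe sets, with EB in red and ESC in blue, thin lines for single cultures and thick lines for means. The EB lines of Nanog peak in pools 3 and 4 (means of 41.0% and 33.7%), and its ESC lines lie highest in pool 2 (mean of 35.1%).

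Pool by pool, the signed difference between EB and ESC on the deposited scale was -0.47, 0.098, 1.69 and 2.27 in pools 1 to 4 for Nanog, and -0.67, -0.30, 1.36 and 1.51 for Sox2. In pool 1, Sox2 had deposited values of 11.53, 11.27 and 11.28 in EB, against 12.94, 11.58 and 11.60 in ESC. All EB cultures were lower. None of the 5 probe sets was called in pool 1 on the deposited scale, where 0% of probe sets were called in either direction by limma and 1021 had an unadjusted p under 0.05. Relative to all genes Sox2 fell by 0.80 ± 0.14 (limma, adjusted p = 0.0283) and Nanog fell by 0.43 ± 0.070 (limma, adjusted p = 0.0226), beside 4.87% of probe sets called lower and 4.91% called higher. The Sox2 call was lost without any one of the 6 cultures (adjusted p 0.0509 to 0.0960). The Nanog call held without EB replicate 2, at the lowest adjusted p of 0.0381, and was lost without each of the others (up to 0.0852). With the replicate number as a block, which pairs the cultures in this pool, Nanog had an adjusted p of 0.0690 and Sox2 passed (limma, adjusted p = 0.0453). Pou5f1 differed by 0.21 relative to all genes, with EB above ESC in all cultures (limma, adjusted p = 0.0925). Sall4 1424152_at differed by -0.47 ± 0.13 relative to all genes with EB below ESC in all cultures (limma, adjusted p = 0.0925), and it passed without ESC replicate 1 (-0.60, limma, adjusted p = 0.0304).

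In pool 2 no member was called by limma on either scale, and 1, Sox2 relative to all genes, had an unadjusted p under 0.05. Deposited differences ran from -0.30 for Sox2 to 0.33 for Sall4 1424152_at, each with an SE of 0.41, and relative differences from -0.59 for Sox2 (limma, adjusted p = 0.218) to 0.028 for Sall4 1424152_at. Over all probe sets 2.53% were called higher and 0.215% lower on the deposited scale, and 1.75% and 1.95% relative to all genes.

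In pool 3, Nanog had deposited values of 13.06, 11.94 and 12.17 in EB, against 11.14, 10.17 and 10.72 in ESC, and rose by 1.69 ± 0.40 (limma, adjusted p = 0.00259). Sox2 rose by 1.36 ± 0.39 (adjusted p = 0.00838), Sall4 1424153_s_at by 1.33 ± 0.43 (adjusted p = 0.0161) and Pou5f1 by 1.04 ± 0.40 (adjusted p = 0.0374), all by limma. These 4 of 5 calls stand beside 46.1% of probe sets called higher and 0.0481% called lower. Without EB replicate 1 or without ESC replicate 2, 2 of the 4 calls were left, and Pou5f1 was also lost without EB replicate 3 or ESC replicate 3. The Pou5f1 call was lost as well with an offset of 8 (limma, adjusted p = 0.0705), with a larger offset (0.0897), without the filter (0.104) and under trend and robust moderation (0.0560). Sall4 1424152_at had 12.28, 10.82 and 11.22 in EB and 11.09, 10.19 and 11.05 in ESC, a difference of 0.65 ± 0.41 that did not pass (limma, adjusted p = 0.182). With the replicate number as a block, which pairs the cultures in this pool, it passed (limma, adjusted p = 0.00646). Pou5f1 passed there as well (limma, adjusted p = 1.27e-05), and all 5 probe sets were called higher, beside 21061 of all 27022. All 5 had the same SE of 0.23 in that fit, from a variance shared over probe sets. Its p-values therefore do not measure the spread of each probe set over the cultures.

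The same Sall4 probe set went the other way in pool 3 relative to all genes. It read 10.96, 10.68 and 10.77 in EB, against 11.29, 11.40 and 11.66 in ESC. All EB cultures were lower, and it fell by 0.65 ± 0.15 (limma, adjusted p = 0.0219), beside 7.3% of probe sets called lower and 8.43% called higher. Without EB replicate 2, EB replicate 3, ESC replicate 2 or ESC replicate 3 the adjusted p was 0.0529 to 0.0922. Nanog differed by 0.40 ± 0.12 on this scale, with EB above ESC in all cultures, and missed the threshold (limma, adjusted p = 0.0540).

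For Nanog, Sox2 and both Sall4 probe sets the estimated difference between the states was largest in pool 4 on the deposited scale. The differences were not tested between pools, and for Sox2 the pool 3 value was 1.36 ± 0.39. Nanog had deposited values of 12.11, 11.93 and 12.26 in EB, against 9.79 ± 0.44 (SD, n = 3) in ESC. It rose by 2.27 ± 0.21, a 4.83-fold difference (limma, adjusted p = 5.05e-06). Sox2, with 12.71, 12.74 and 12.90 in EB and 11.25, 11.32 and 11.20 in ESC, rose by 1.51 ± 0.14 (limma, adjusted p = 5.61e-06). Sall4 rose by 1.31 ± 0.17 at 1424152_at (limma, adjusted p = 4.29e-05) and by 1.84 ± 0.40 at 1424153_s_at (limma, adjusted p = 0.00158). Pou5f1, with 11.36 ± 0.28 in EB and 10.49 ± 0.54 in ESC (SD, n = 3 each), rose by 0.86 ± 0.24 (limma, adjusted p = 0.00844). All 5 probe sets were called higher, beside 69.3% of all probe sets called higher and 0.255% called lower.

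Nanog was the 1 member called in pool 4 relative to all genes. It read 11.46, 11.45 and 11.57 in EB, against 10.54, 10.63 and 10.31 in ESC on that scale. The groups lay far apart, and the difference of 1.00 ± 0.10 passed the test (limma, adjusted p = 0.00232), beside 12.8% of probe sets called higher and 10.6% lower. It held without each culture in turn (adjusted p 0.00590 to 0.0170). Sox2 differed by 0.34 ± 0.10 with EB above ESC in all cultures and missed the threshold (limma, adjusted p = 0.0518). Pou5f1 differed by -0.43 ± 0.17 with EB below ESC in all cultures (limma, adjusted p = 0.131), and Sall4 1424152_at by 0.056 (limma, adjusted p = 0.701). Sall4 1424153_s_at read 8.24, 7.65 and 7.82 in EB, against 8.04, 7.37 and 6.20 in ESC, which overlapped. Its difference of 0.70 ± 0.46 lay at the 95.2 percentile and did not pass (limma, adjusted p = 0.335).

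**Figure D3:**
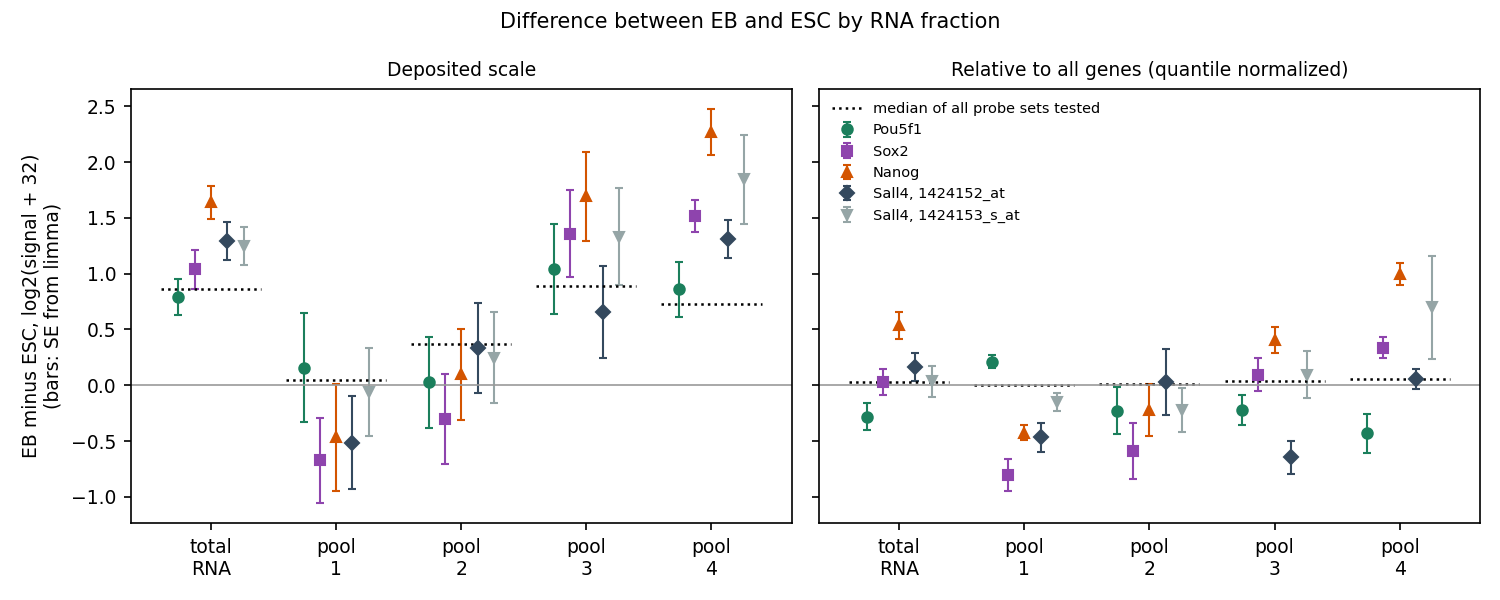
Difference between EB and ESC (y axis, log2 of signal + 32, bars are the limma SE) in total RNA and in pools 1 to 4 (x axis), on the deposited scale at left and relative to all genes at right, with dotted lines at the median of all probe sets tested. Nanog lies above that median in total RNA and pools 3 and 4 on both scales (1.00 relative to all genes in pool 4), while Pou5f1 lies below 0 in total RNA and pools 2 to 4 relative to all genes.

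To follow each mRNA along the gradient in a single value per culture, the pool ratio was taken as the log2 value averaged over pools 3 and 4, less the average over pools 1 and 2. Relative to all genes Nanog and Sox2 moved toward pools 3 and 4 in EB, and Pou5f1 and Sall4 were not called. On the relative scale the pool ratio of Nanog was 0.99, 0.80 and 0.91 in EB, against -0.22, -0.23 and -0.066 in ESC. It rose by 1.07 ± 0.16, a 2.10-fold shift (limma, adjusted p = 0.00811), at the 99.8 percentile of all probe sets tested. The pool ratio of Sox2 was 0.90, 0.58 and 0.97 in EB, against -0.22, -0.20 and 0.16 in ESC. It rose by 0.90 ± 0.18, or 1.87-fold (limma, adjusted p = 0.0208), at the 99.4 percentile.

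These 2 of 5 calls stand beside 2.27% of all probe sets called higher and 2.99% called lower. The shift of Nanog stayed between 1.04 and 1.12 without each culture in turn, and its call was lost only without ESC replicate 2 (adjusted p = 0.0670). Without that culture limma called 0 of all probe sets in either direction, and 4587 had an unadjusted p under 0.05. Without ESC replicate 1 it called 107 higher and 239 lower, against 614 and 808 with all cultures. The shift of Sox2 stayed between 0.80 and 1.02, and its call was lost without EB replicate 1, EB replicate 3, ESC replicate 1 or ESC replicate 2 (adjusted p 0.0504 to 0.111). EB replicate 3 includes the pool 2 array that stood apart, and without it Nanog still passed and Sox2 had a shift of 0.80 (limma, adjusted p = 0.0504).

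Pou5f1 had relative pool ratios of 0.14, 0.00 and 0.22 in EB, against 0.69, 0.32 and 0.41 in ESC. All EB cultures were lower, with a difference of -0.35 ± 0.17 that did not pass (limma, adjusted p = 0.245). Sall4 1424152_at had 0.86, 0.74 and 0.39 in EB and 0.89, 0.72 and 0.70 in ESC, which overlapped, a difference of -0.11 ± 0.18 (limma, adjusted p = 0.780). Sall4 1424153_s_at had 0.65, 0.40 and 0.52 in EB and 0.48, -0.18 and -0.45 in ESC, a difference of 0.58 ± 0.22 at the 94.5 percentile (limma, adjusted p = 0.154). This probe set passed with median centring (0.83, limma, adjusted p = 0.00779). It also passed where each array was scaled first and the offset added afterwards (0.78, limma, adjusted p = 0.0304), and its shift was not tested against those of Sox2 and Nanog.

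On the deposited scale the pool ratio was higher in EB for all 5, beside 54.9% of all probe sets called higher, 0.241% called lower and a median shift of 0.61. Nanog had 1.59, 1.60 and 1.71 in EB, against -0.94, -0.31 and -0.35 in ESC, and rose by 2.17 ± 0.23 (limma, adjusted p = 2.72e-09). Sox2 had 1.22, 1.03 and 1.55 in EB, against -1.12, -0.47 and -0.38 in ESC, and rose by 1.92 ± 0.24 (limma, adjusted p = 2.00e-08). Sall4 rose by 1.07 ± 0.23 at 1424152_at (limma, adjusted p = 0.000121) and by 1.49 ± 0.23 at 1424153_s_at (limma, adjusted p = 9.24e-07). Pou5f1 rose by 0.86 ± 0.23 (limma, adjusted p = 0.00139).

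Within a state, the relative pool ratio tells where an mRNA lay compared with the other mRNAs on the same gradient. In EB, Nanog (0.90 ± 0.11), Sox2 (0.82 ± 0.13), Sall4 1424152_at (0.66 ± 0.12) and Sall4 1424153_s_at (0.53 ± 0.16) lay toward pools 3 and 4, and Pou5f1, at 0.12 ± 0.12, did not pass the test. Adjusted p-values from limma were 7.37e-05, 0.000408, 0.00132 and 0.0223 for the 4 called and 0.490 for Pou5f1, beside 20.2% of probe sets called toward pools 3 and 4 and 14.7% toward pools 1 and 2. The call of 1424153_s_at was lost without each EB culture in turn (adjusted p 0.0537 to 0.113). In ESC it was Sall4 1424152_at (0.77 ± 0.12, limma, adjusted p = 0.000876) and Pou5f1 (0.47 ± 0.12, limma, adjusted p = 0.0122) that lay toward pools 3 and 4, beside 13.3% of probe sets called that way and 12.4% the other. Nanog (-0.17) and Sox2 (-0.087) were not called there (limma, adjusted p = 0.301 and 0.679). The Pou5f1 call was lost without ESC replicate 1 (adjusted p = 0.113) or ESC replicate 3 (0.0519).

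On the deposited scale all 5 were called toward pools 3 and 4 within EB, from 0.87 for Pou5f1 to 1.63 for Nanog, beside 52.1% of probe sets called that way and 4.81% the other. Within ESC, Sox2 at -0.66 ± 0.17 (limma, adjusted p = 0.00303) and Nanog at -0.53 ± 0.16 (limma, adjusted p = 0.0150) were called toward pools 1 and 2, beside 15.3% of probe sets called that way and 5.01% the other. Both were lost without ESC replicate 1 (adjusted p 0.195 and 0.324), whose pool 1 array was the brightest of its group, while centring on the hybridisation controls turned both signs, to 0.47 for Sox2 and 0.59 for Nanog.

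**Figure D4:**
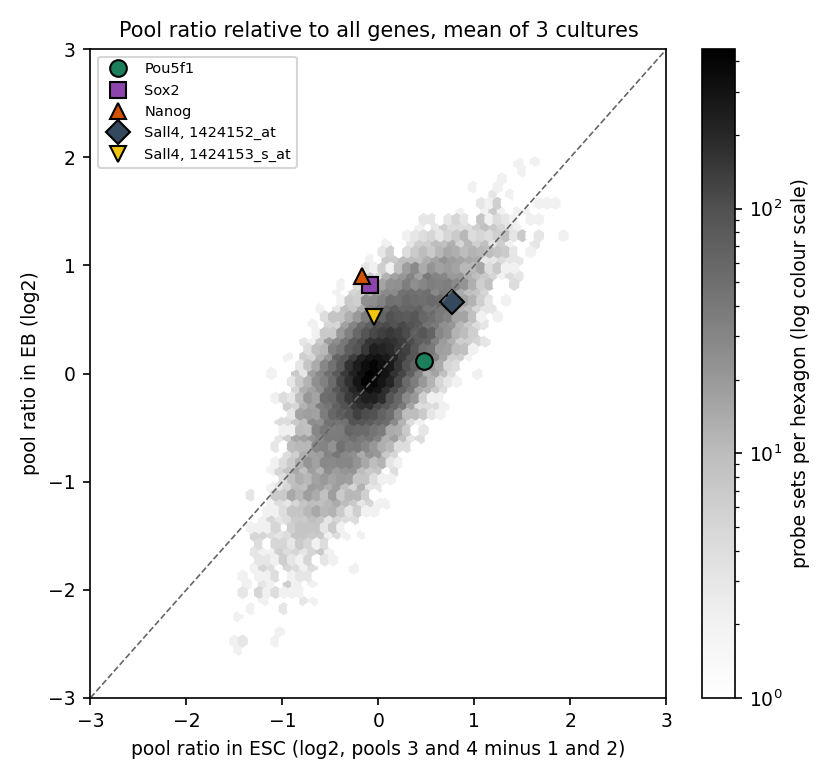
Pool ratio relative to all genes (log2, pools 3 and 4 minus pools 1 and 2, mean of 3 cultures) in EB (y axis) and in ESC (x axis) for all 27022 probe sets tested, in grey hexagons shaded by a log count, with the 5 probe sets marked and a dashed line of equality. Nanog (0.90 in EB, -0.17 in ESC) and Sox2 (0.82, -0.087) lie above the line, and Sall4 1424152_at (0.66, 0.77) lies near it.

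A scaling of a whole array cancels, apart from the offset of 32, when 2 members are subtracted on the same array, and so do the fixed brightness differences of their probes when that difference is compared between states. Only the difference between EB and ESC is read from these values, since their zero has no meaning. Nanog against Pou5f1 gave the clearest contrast. In pool 4 the Nanog minus Pou5f1 difference was 0.55, 0.88 and 0.76 in EB, against -0.90, -0.53 and -0.62 in ESC, a gain of 1.41 ± 0.15 (SE). In total RNA the gain was 0.85 ± 0.087 and in pool 3 it was 0.65 ± 0.052. In pool 1 it was -0.63 ± 0.071, with all EB cultures below all ESC cultures, and in pool 2 it was 0.072 ± 0.18 with overlap. The pool ratio of Nanog minus that of Pou5f1 gained 1.31 ± 0.13 in EB.

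Sox2 against Pou5f1 gained 0.25 ± 0.11 in total RNA, 0.31 ± 0.23 in pool 3 and 0.66 ± 0.33 in pool 4, the last 2 with overlap. It changed by -0.83 ± 0.21 in pool 1 and by -0.33 ± 0.14 in pool 2, where all EB cultures lay below all ESC cultures. Its pool ratio gained 1.07 ± 0.19. Sall4 1424152_at against Pou5f1 gained 0.50 ± 0.058 in total RNA and changed by -0.67 ± 0.14 in pool 1 and -0.39 ± 0.15 in pool 3, with no overlap, and its pool ratio differed by 0.22 ± 0.20 with overlap. Against Nanog, Sall4 changed by -0.35 ± 0.11 in total RNA, -1.04 ± 0.15 in pool 3 and -0.96 ± 0.17 in pool 4, and its pool ratio by -1.09 ± 0.20. Nanog against Sox2 gained 0.60 ± 0.13 in total RNA and 0.76 ± 0.23 in pool 4, and its pool ratio differed by 0.24 ± 0.13 with overlap. Over the 42 such comparisons, chosen after the data were seen, a two-sided exact permutation test of 3 against 3 cultures cannot go below p = 0.1, and every non-overlapping pair had that p and an adjusted value of 0.191.

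**Figure D5:**
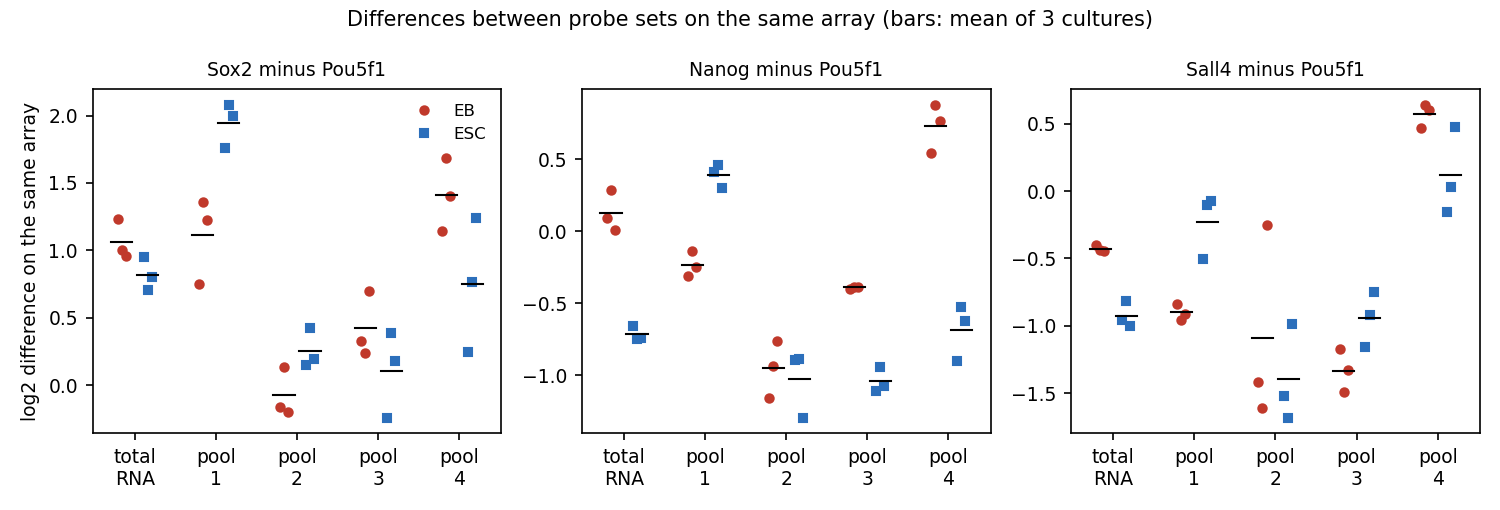
Log2 difference between Sox2, Nanog or Sall4 (1424152_at) and Pou5f1 on the same array (y axes), for total RNA and pools 1 to 4, with EB as red circles left of ESC as blue squares and bars at the mean of 3 cultures; the height of a point depends on the probes, so only the distance between the states is read. For Nanog the EB points lie above the ESC points in total RNA and pools 3 and 4 and below them in pool 1.

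The difference between the 2 Sall4 probe sets, designed from the same expressed sequence tag, separated the states in pools 1 and 3 only. In total RNA the 1424153_s_at minus 1424152_at difference changed by -0.044 ± 0.11 between the states with overlap. In pool 3 it was -3.16, -3.02 and -3.09 in EB, against -3.26 to -4.04 in ESC, a gain of 0.68 ± 0.26 with EB above ESC in all cultures (exact permutation p = 0.1, n = 3 each). The gain in pool 1 was 0.46 ± 0.15, also without overlap (exact permutation p = 0.1, n = 3 each). Both had an adjusted value of 0.191, and the pool ratio of the pair changed by 0.42 ± 0.31 with overlap. The suffix of 1424153_s_at marks probes that can match more than 1 transcript, and it is the dimmer of the 2 probe sets. The relative pool 3 call of Sall4 rests on 1424152_at, since 1424153_s_at differed by 0.095 there (limma, adjusted p = 0.807).

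Genes whose profile was most like that of a member over the 30 arrays, by Pearson correlation of quantile-normalized values among 13249 other genes, were found for each factor. The arrays share cultures, pools and hybridisations, so these values are descriptions. The top 1% of the other genes began at an r of 0.676 for Nanog, 0.745 for Sox2, 0.765 for Sall4 and 0.648 for Pou5f1. Nanog was closest to Pbk, a mitotic kinase (r = 0.917), Mapk1ip1l (0.859) and Etnk1, an ethanolamine kinase (0.835). Sox2 was closest to Yy1, a zinc-finger transcription factor (0.879), Pogz (0.877) and Nupl1 (0.876). Sall4 was closest to Mrtfa, a coactivator of serum response factor (0.894), Fscn1, an actin bundler (0.891), and Rad50, a DNA repair protein (0.884). Pou5f1 was closest to Park7 (0.837), Eef1d, a translation elongation factor subunit (0.828), and Nans (0.828). Among the members, Sox2 and Nanog correlated at 0.789, Sox2 and Sall4 at 0.514 and Nanog and Sall4 at 0.381, while Pou5f1 had -0.252 with Sox2, -0.223 with Nanog and -0.152 with Sall4.

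Other genes of the network were read from lists, each gene by its brightest probe set. Of 29 tested partners of the core factors, 4 rose and 7 fell in total RNA on the relative scale. Their median was -0.19, against 0.027 over all probe sets, of which 4.36% were called higher and 3.35% lower. The partners that fell include Klf4 (-1.69 ± 0.12, adjusted p = 0.00156) and Klf5 (-1.22 ± 0.15, adjusted p = 0.00843), Krüppel-like factors of the naive network, by limma. Those that rose include Otx2, a homeodomain factor that works with Oct4 in the primed epiblast (1.84 ± 0.12, limma, adjusted p = 0.00145), and Prdm14 (1.15 ± 0.14, limma, adjusted p = 0.00810). On the deposited scale, where 73.3% of all probe sets were called higher and their median was 0.86, 25 of the 29 rose and 1, Klf4, fell, with a median of 1.09. Of the other markers fixed for undifferentiated cells, Tfcp2l1 fell (-0.51 ± 0.12, limma, adjusted p = 0.0459), and Esrrb (-0.31 ± 0.11, limma, adjusted p = 0.135) and Zfp42 (-0.044 ± 0.12, limma, adjusted p = 0.848) were not called.

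Of 17 tested genes known as targets of Oct4 and Sox2, 5 rose and 2 fell in total RNA on the relative scale. Their median was 0.15, and 4.36% of all probe sets were called higher and 3.35% lower in that fit. Lefty2, a Nodal antagonist (1.61 ± 0.12, limma, adjusted p = 0.00190), and Dppa3 (1.21 ± 0.17, limma, adjusted p = 0.0114) rose. Fgf4, a growth factor gene with a known Oct and Sox composite enhancer (-0.66 ± 0.14, limma, adjusted p = 0.0345), and Tcl1 (-0.68 ± 0.16, limma, adjusted p = 0.0459) fell. All 17 rose on the deposited scale, beside the same 73.3%. Of 19 NuRD and BAF chromatin subunits, complexes that the core factors bind, 1 rose, Mta3 (1.08 ± 0.14, limma, adjusted p = 0.00937), and 1 fell, Arid1a (-0.47 ± 0.11, limma, adjusted p = 0.0492). These counts are near the shares of all probe sets, 4.36% called higher and 3.35% lower. The median of the subunits was -0.18, and all 19 rose on the deposited scale, again beside 73.3% of all probe sets.

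Of 12 tested paralogs of the members, other Pou, Sox and Sall genes, 0 rose and 4 fell by limma on the relative scale (0 and 9 at an unadjusted p under 0.05), and their median was -0.60. Over all probe sets 4.36% were called higher and 3.35% lower. Sox1 (-1.18 ± 0.20, limma, adjusted p = 0.0193), which is also on the neural list, and Pou3f1 (-0.99 ± 0.23, limma, adjusted p = 0.0485) were the lowest of these 4. Of these 12, 5 rose and 1 fell on the deposited scale, beside 73.3% of all probe sets called higher and 0.229% called lower.

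In the pool ratio relative to all genes 2.27% of all probe sets were called higher in EB and 2.99% lower, and no list was tested as a whole. The calls higher in EB were 2 of 29 partners, Otx2 (0.98 ± 0.18, limma, adjusted p = 0.0170) and Tbx3 (0.70 ± 0.15, limma, adjusted p = 0.0275), and 1 of 17 targets, Fbxo15 (0.69 ± 0.16, limma, adjusted p = 0.0333). Also called higher were 3 of 19 NuRD and BAF subunits, among them Rbbp7 (0.88 ± 0.18, limma, adjusted p = 0.0216) and Mta2 (0.85 ± 0.19, limma, adjusted p = 0.0278), and 1 of 12 paralogs, Sox4 (0.81 ± 0.19, limma, adjusted p = 0.0367). The medians were 0.19 for partners, 0.30 for targets, 0.14 for the subunits and 0.20 for paralogs, against 0.045 over all probe sets. No gene of these 4 lists was called lower by limma, and 2 targets were lower at an unadjusted p under 0.05.

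Summed over the 4 factors, the brightest probe sets held 15.7 to 16 of every 10000 units of linear signal in EB total RNA and 15.7 to 16.2 in ESC total RNA. Markers of other cell types moved beside them. Their calls in total RNA relative to all genes stand beside 4.36% of all probe sets called higher and 3.35% called lower. The summed signal of 10 primitive endoderm markers was 0.505 to 0.554 in EB and 0.161 to 0.289 in ESC per 10000 units, and 4 of 9 tested rose relative to all genes, with Dab2 (1.61 ± 0.17) and Ttr (1.53 ± 0.32) the highest, while Lama1 differed by -0.81 ± 0.30 (adjusted p = 0.151) and was lower at an unadjusted p under 0.05. For 7 streak and mesoderm markers it was 0.229 to 0.314 in EB and 0.148 to 0.189 in ESC, and 1 of 5 tested rose, Eomes (0.73 ± 0.16). For 6 neural markers it was 0.313 to 0.355 in EB and 0.334 to 0.455 in ESC, where 0 of 5 rose by limma (1 at an unadjusted p under 0.05) and 2 fell, Sox1 and Nes (-0.59 ± 0.12). For 5 trophectoderm markers it was 0.652 to 0.689 in EB and 0.966 to 1.05 in ESC, and 1 of 3 tested fell, Krt8 (-1.52 ± 0.11). Fibroblast markers, as a feeder layer would give, summed to 0.165 to 0.198 in EB and 0.211 to 0.282 in ESC, and none of 3 tested was called by limma (1 lower at an unadjusted p under 0.05). Only these 3 of 8 passed the brightness filter. The summed linear signal of the 8 as deposited ran the other way, 265 to 328 in EB and 148 to 199 in ESC. In ESC the deposited sums were 101 to 133 for the 7 streak markers and 113 to 202 for the 10 primitive endoderm markers. A single probe set averaged 154 on ESC total arrays, so these markers were dim there. The part of background in the sums was not tested. Gsc and Lhx1, organizer genes of the streak list, Cdx2, which defines trophectoderm, Afp, and the collagen genes Col1a1 and Col3a1 fell below the brightness filter. The part of these cell types in the members' values was not tested.

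In the pool ratio relative to all genes, 0 of 9 primitive endoderm, 0 of 5 streak, 0 of 5 neural and 0 of 3 fibroblast markers were called by limma, with 2, 1, 0 and 0 higher and none lower at an unadjusted p under 0.05, and 2 of 3 trophectoderm markers fell, Krt18 (-1.02 ± 0.18, adjusted p = 0.0152) and Krt8 (-0.67 ± 0.15, adjusted p = 0.0314). The medians of the 5 lists were 0.059, -0.20, -0.11, -0.14 and -0.67.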

How the data were processed

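The deposited values were log2 signals of 45101 Affymetrix probe sets on 30 arrays; the submitters' processing notes name MAS5 and affy and give no version or setting for either. To judge by the values, the arrays were scaled to Bacillus spike-in controls (24 probe sets with a mean log2 of 9.43 to 9.78 on all arrays), whereas the mean of 18 hybridisation controls varied from 9.6 to 13.9; the labels do not say when spike-ins were added. A floor on pool arrays was shared within a replicate number and held 18.3% to 59.1% of probe sets.

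Tests used log2(linear signal + 32). The dimmest 40% of probe sets and 64 controls were left out, and 27022 were fitted with limma 3.58.1 in R 4.3.3 (lmFit, eBayes, two-sided, Benjamini-Hochberg over all, threshold 0.05), without the replicate block. Values relative to all genes come from quantile normalization of the arrays in each fit, or of the 24 pool arrays for pool ratios, which were fitted as 6 cultures. The number of arrays limits the precision. Probe sets were named by GEO's platform annotation: 34945 had 1 symbol, 932 several and 9160 none. The members were all their probe sets, a gene's brightest stands for it in the lists and likeness, and listed genes are the 2 highest and 2 lowest called. The members and lists were chosen with earlier results of these data known. Deviations from group means of same-numbered cultures correlated at 0.52, 0.32 and 0.33 in pool 1, 0.34, 0.14 and 0.15 (pool 2) and 0.45, 0.35 and 0.11 (pool 3), which pairs the cultures of these pools. They correlated at 0.38, 0.06 and 0.03 in pool 4 and at 0.25, 0.14 and 0.04 for the pool ratio. The floor was shared by replicate number, and array brightness partly went with it. Pool 3 mean signals of replicates 1 to 3 were 577.8, 262.8 and 340.8 in EB and 204.9, 107.1 and 161.4 in ESC. Where the pairing comes from was not tested. Recovery in the relative pool ratio was tried on 27022 simulated probe sets with few known changes and independent noise. It was 42% for log2 changes of 1 and 96% for log2 changes of 2. Alternatives were other scalings, a smaller (8) and a larger offset, no filter, 1 probe set per gene, another variance moderation, each culture left out and the replicate block.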

Additional observations from a re-analysis of the deposited data

Results flagged for a closer look

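The difference in pool ratio between EB and ESC passed the test for 7 values. On the deposited scale it was 0.86 for Pou5f1, 1.92 for Sox2, 2.17 for Nanog, 1.07 for Sall4 1424152_at and 1.49 for Sall4 1424153_s_at. These 5 stand beside 54.9% of all probe sets called higher and a median shift of 0.61, and Pou5f1 lay at the 65.0 percentile and turned to -0.35 relative to all genes. On that scale the difference was 0.90 for Sox2 and 1.07 for Nanog, beside 2.27% of all probe sets called higher. No explanation for these values was tested.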

How the results depend on the processing

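Counts here are of the 5 probe sets called by limma. On the deposited scale 5 were called in total RNA, 4 in pool 3, 5 in pool 4, 5 in the pool ratio, 5 within EB, 2 within ESC and 0 in pools 1 and 2. With quantile normalization 1 was called in total RNA, 2 in pool 1, 1 in pool 3, 1 in pool 4 and 2 in the pool ratio. With median centring 1 was called in total RNA, 1 in pool 3, 3 in the pool ratio and 1 within ESC. With arrays scaled before the offset 0 were called in total RNA, 3 in pool 1, 1 in pool 3, 1 in pool 4 and 3 in the pool ratio. With centring on the hybridisation controls 0 were called in total RNA, pool 3, pool 4 and the pool ratio. Other settings moved pool 3, to 2 with a larger offset and 2 without the filter, and the count within ESC, to 1 with an offset of 8 and 0 without the filter. Within ESC, Sall4 1424152_at passed with a larger offset (adjusted p = 0.0351) and under trend and robust moderation (0.0411). Leaving out each culture gave 2 to 4 calls in pool 3 and 0 to 2 within ESC. Relative to all genes it gave 0 in total RNA each time, 0 to 1 in pool 1, 0 to 1 in pool 3, 0 to 2 in the pool ratio and 1 to 2 within ESC.

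Directions turned as follows where the value was called under one of the settings compared. Pou5f1 in total RNA was -0.28 with quantile normalization, -0.11 with median centring, -0.35 with arrays scaled before the offset and -0.046 on the hybridisation controls. Sox2 in total RNA was -0.11 with arrays scaled before the offset. In pool 3 Pou5f1 was -0.22 and Sall4 1424152_at -0.65 with quantile normalization. Scaling the arrays before the offset gave -0.24 for Pou5f1 and -0.62 for Sall4 1424152_at there. In pool 4 Pou5f1 was -0.43 with quantile normalization, -0.041 with median centring, -0.37 with arrays scaled before the offset and -0.20 on the hybridisation controls. In the pool ratio Pou5f1 was -0.35 with quantile normalization and -0.076 with arrays scaled before the offset, and Sall4 1424152_at was -0.11 with quantile normalization. Within ESC the hybridisation controls gave 0.47 for Sox2, 0.59 for Nanog and 1.00 for Sall4 1424153_s_at. The pool share centre, with arrays scaled to one mean signal, differed by -0.050 for Pou5f1, 0.39 for Sox2, 0.53 for Nanog, 0.19 for Sall4 1424152_at and 0.39 for Sall4 1424153_s_at. Values called in neither setting turned sign 45 times. In pool 3 Sall4 1424152_at was -0.39 with median centring and -0.34 on the hybridisation controls. In pool 2 Pou5f1 was -0.23, -0.46, -0.46 and -0.64 with quantile normalization, median centring, arrays scaled before the offset and the hybridisation controls. In the same order Nanog was -0.22, -0.39, -0.39 and -0.57 and Sall4 1424153_s_at -0.22, -0.24, -0.16 and -0.42. The last 3 settings gave -0.15, -0.15 and -0.33 for Sall4 1424152_at there. The cause of these changes was not tested.

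The replicate block left 0 calls relative to all genes in total RNA, where Nanog had an adjusted p of 0.111 and the numbers do not pair the cultures, and 1 in pool 1. Over all probe sets in pool 2 it called 3057 higher and 198 lower on the deposited scale, where the fit without it called 685 and 58. In pool 3 it called 21061 and 43, where the fit without it called 12465 and 13. It changed no other call of a member than those given here and beside the results. Over the alternatives the number of all probe sets called ran from 467 to 19950 in total RNA, 0 to 2838 in pool 1, 0 to 3727 in pool 2, 176 to 21104 in pool 3, 71 to 20027 in pool 4, 0 to 16684 in the pool ratio, 2458 to 23727 within ESC and 8520 to 16710 within EB. Of the counts and centres under alternatives, 149 stayed close to the value reported (counts within 1.5 times, centres within 1 SD), 47 counts were further below it, 2 were further above it, 4 centres moved by more and 1 turned. A count that stayed close does not show that the same probe sets were called. Of 27022 probe sets simulated for the deposited pool ratio, 24% of log2 changes of 1 were recovered. Few simulated probe sets carried a change, whereas 54.9% of all were called higher in the data. The simulated rate therefore does not give the rate of the real fit, which is not known.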
